A study of Mus musculus with 15 samples.

Results

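Midkine (Mdk) and pleiotrophin (Ptn) are the whole of a small family of secreted, heparin-binding growth factors. They were followed here with 4 proteins that bind them at the cell surface: the receptor phosphatase Ptprz1, the heparan sulfate proteoglycan Sdc3, the endocytic receptor Lrp1 and the shuttling nucleolar protein Ncl. The 6 genes were fixed by name, and all 6 had 1 probe set with a value, out of 13513 named genes. Mouse heart cells of 3 kinds were measured on Affymetrix arrays, 5 arrays per kind and 15 in all. EpiSC, or epicardial stromal cells, and aCF, or activated cardiac fibroblasts, both came from hearts removed on day 5 after an infarction was induced. CF are fibroblasts from hearts that had no infarction. All mice were wild-type C57BL/6 aged 8 to 12 weeks, all hearts were digested with collagenase, and no sham-operated group is named. Per the labels' protocols, EpiSC were shaken off the heart surface, whereas aCF and CF were strained and spun out of ventricles freed of atria. The way of isolation and the kind of cell cannot be told apart between EpiSC and the fibroblasts, and the sources used here name no sort.

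Both ligands cling to sulfated sugar chains, which hold them near the cell and take part in receptor binding. Binding to Ptprz1 lowers its phosphatase activity, syndecans carry the chains that capture the ligand, and Lrp1 is known to bind midkine. Both factors are abundant in the embryo and are made again in injured tissue, and midkine has been studied in the infarcted mouse heart.

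Every gene name below rests on an inferred pairing of identifiers with values. In the deposited table each identifier appears to stand 6900 rows above its values, with 3 rows more for chromosomes 10 and 11. No header or label states this. The offset of 6900 gave 11 cell cycle genes, none on chromosomes 10 or 11, a mean pairwise correlation of 0.317 within groups, against -0.0240 as deposited and at most 0.245 at any other offset. The extra 3 rows touch Lrp1 alone among the 6 genes. With them, 10 marker genes on chromosomes 10 and 11 had a mean correlation of 0.603 with their own lists, against 0.108 without them and at most 0.255 at the other extra offsets tried. This second check used differences between groups.

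Each value is log2 expression with the probe set's own median over the 15 arrays set to 0, which keeps differences between groups and loses the level. A value of 0 marks the median array, not absence. In bulk RNA, fewer cells of a type and less RNA per cell cannot be told apart. The EpiSC label held against a marker mean. Over 7 of 13 epicardial and mesothelial markers with a value it lay between 1.33 and 2.04 in EpiSC arrays, -0.690 and 0.227 in aCF arrays and -1.09 and -0.311 in CF arrays. Not every marker followed. Tbx18 (0.10) and Aldh1a2 (-0.02) overlapped between EpiSC and aCF, and Dmkn was 2.41 higher in aCF than in CF without passing Bonferroni in limma. Fibroblast markers are given with the other lists below. Correlations between arrays of a group ranged over 0.423 to 0.524 in EpiSC, 0.0301 to 0.426 in aCF and 0.627 to 0.748 in CF.

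Promoter windows from RefSeq (build GRCm38.p6) were matched for 5 of the 6 genes, Ptn, Ptprz1, Sdc3, Lrp1 and Ncl. The 3 windows below belong to genes with unlike patterns: Ptn and Sdc3 were highest in aCF, and Lrp1 was highest in CF. Each holds 300 bases around the gene's start, mostly before it, 5′ to 3′ on the gene's own strand, and capitals mark motif matches on either strand. The Ptn window is chr6:36810130-36810429 on the minus strand, that of Sdc3 is chr4:130792287-130792586 on the plus strand and that of Lrp1 is chr10:127621099-127621398 on the minus strand.
Ptn: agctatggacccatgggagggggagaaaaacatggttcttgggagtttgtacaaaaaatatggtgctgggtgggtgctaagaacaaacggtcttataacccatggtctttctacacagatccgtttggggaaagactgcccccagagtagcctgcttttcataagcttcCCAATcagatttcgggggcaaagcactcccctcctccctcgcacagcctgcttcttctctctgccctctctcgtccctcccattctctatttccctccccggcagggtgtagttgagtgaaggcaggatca
Sdc3: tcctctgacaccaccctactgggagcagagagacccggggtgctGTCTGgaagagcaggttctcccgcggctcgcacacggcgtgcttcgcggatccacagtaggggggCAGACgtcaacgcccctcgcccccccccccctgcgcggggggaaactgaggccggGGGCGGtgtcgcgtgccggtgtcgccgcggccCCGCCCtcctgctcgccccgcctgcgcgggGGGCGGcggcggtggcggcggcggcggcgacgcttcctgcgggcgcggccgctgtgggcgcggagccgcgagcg
Lrp1: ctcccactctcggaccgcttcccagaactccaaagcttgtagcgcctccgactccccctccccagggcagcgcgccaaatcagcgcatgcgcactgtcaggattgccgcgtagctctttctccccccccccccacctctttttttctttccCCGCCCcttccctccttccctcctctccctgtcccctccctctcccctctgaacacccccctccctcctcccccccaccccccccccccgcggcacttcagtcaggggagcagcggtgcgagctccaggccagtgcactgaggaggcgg

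The windows differ in base composition, with 52.0% G and C for Ptn, 77.7% for Sdc3 and 67.7% for Lrp1. The motifs searched were TATAAA (the TATA box), GGGCGG (the GC box), CCAAT (the CCAAT box), GGAATG (bound by TEAD factors), TGANTCA (bound by AP-1), CAGAC (bound by SMAD factors) and CACGTG (an E-box). Ptn held 1 CCAAT box, Sdc3 held 3 GC boxes and 2 CAGAC matches, and Lrp1 held 1 GC box. No matches overlapped. Of 32851 windows of this length, 37.4% held a CCAAT box, 35.7% a GC box and 49.6% a CAGAC match. The shares were 13.6% for TATAAA, 14.7% for GGAATG, 7.81% for TGANTCA and 7.15% for CACGTG, none of which stood in these 3 windows.

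Both ligands were highest in aCF, fibroblasts of the infarcted ventricle. Ptn RNA was 4.14-fold higher in aCF than in CF, and Mdk RNA 2.40-fold higher. Sdc3, the syndecan that binds pleiotrophin, was highest in aCF and lowest in EpiSC, with a 2.05-fold difference between them. Lrp1 was highest in CF, Ncl differed little, and Ptprz1 showed no difference beyond its spread.

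**Figure D1:**
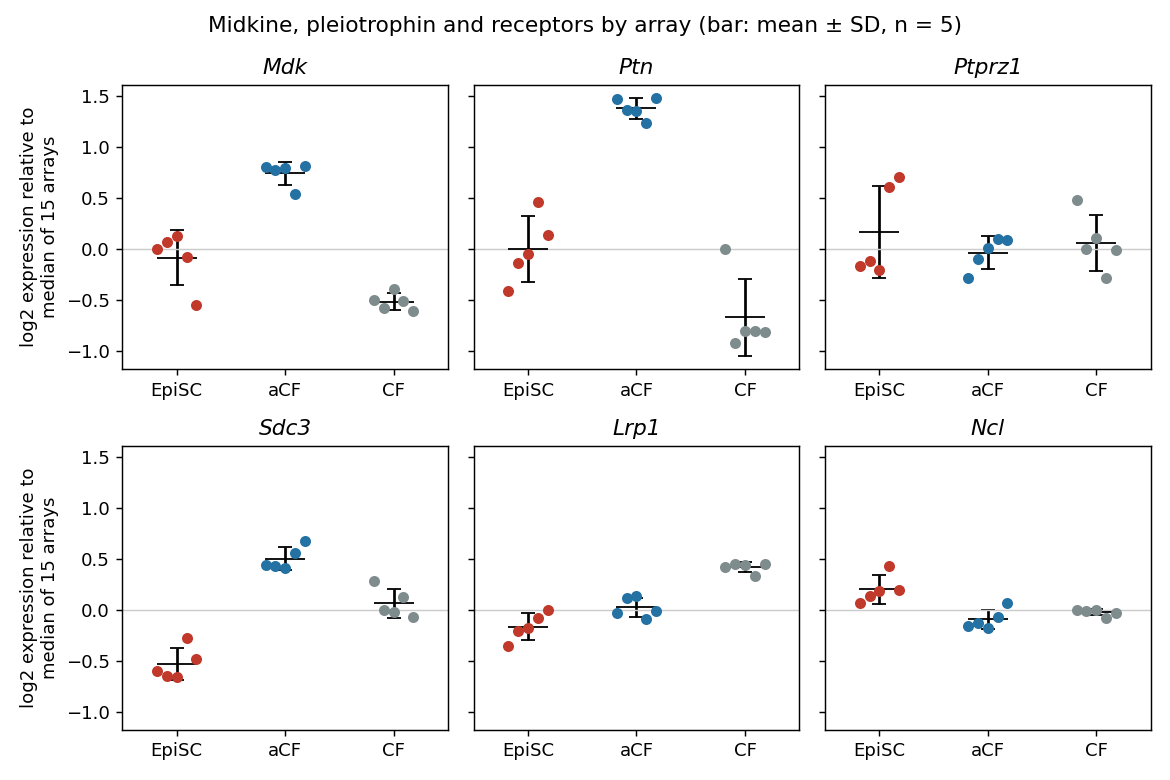
Log2 expression of the 6 genes relative to the median of 15 arrays (vertical axis) in EpiSC, aCF and CF, with a point per array and bars for the mean ± SD (n = 5 per group). The 5 aCF arrays lie above every other array for Mdk, Ptn and Sdc3, whereas the 5 CF arrays lie above every other array for Lrp1.

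The first ligand, Mdk, stood at 0.00, 0.07, 0.13, -0.08 and -0.55 in EpiSC arrays 1 to 5. It stood at 0.80, 0.77, 0.79, 0.54 and 0.81 in aCF arrays and at -0.50, -0.58, -0.39, -0.51 and -0.61 in CF arrays. The aCF arrays formed a block of their own at the top, and EpiSC5 fell among the CF arrays. The group means were -0.086 ± 0.271 in EpiSC, 0.742 ± 0.114 in aCF and -0.518 ± 0.085 in CF (SD, n = 5 each).

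Mdk rose by 1.26 ± 0.07 in aCF over CF (log2 difference ± SE, adjusted p = 6.74e-05, limma's moderated test with Bonferroni adjustment over 22206 rows). The call held in each of the 10 fits that left out 1 array. EpiSC against aCF gave -0.83 ± 0.12 and missed this threshold (adjusted p = 1, limma with Bonferroni), although no EpiSC array reached the lowest aCF array. By Benjamini-Hochberg adjustment over all rows the same limma fit gave 0.00245, and a limma fit of all 3 groups gave a Bonferroni-adjusted p of 0.0467. EpiSC against CF gave 0.43 ± 0.12 with overlapping arrays (Bonferroni-adjusted p = 1, limma).

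The second ligand, Ptn, stood at -0.41, -0.14, -0.05, 0.46 and 0.14 in EpiSC arrays 1 to 5. It stood at 1.47, 1.36, 1.35, 1.23 and 1.48 in aCF arrays and at 0.00, -0.92, -0.81, -0.81 and -0.82 in CF arrays. The aCF arrays again stood clear of all others, while CF1 lay inside the EpiSC range and the other 4 CF arrays lay below it.

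Ptn rose by 2.05 ± 0.16 in aCF over CF (adjusted p = 0.00201, limma with Bonferroni), the widest difference among the 6 genes in the 3 comparisons. This call held in all 10 fits that left out 1 array. It was lost without aCF4 and aCF5 together, where the difference was 2.07 (adjusted p = 0.0843, limma with Bonferroni). Ptn fell by 1.38 ± 0.14 on the log2 scale in EpiSC relative to aCF (adjusted p = 0.0389, limma with Bonferroni), a 2.60-fold difference. That call held only without EpiSC1 or EpiSC4, with an adjusted p up to 0.233 for the other 8 arrays left out in turn and 0.978 without aCF4 and aCF5. It was also lost with replicate number as a block. EpiSC against CF gave 0.67 ± 0.20 and did not pass (adjusted p = 1).

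**Figure D2:**
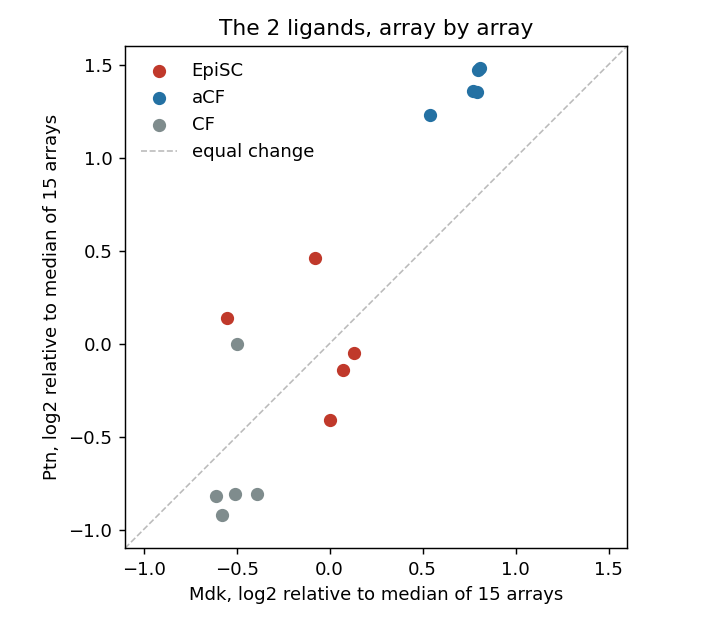
Ptn (vertical axis) against Mdk (horizontal axis), both as log2 expression relative to the median of 15 arrays, with a point per array and the line of equal change dashed. The 5 aCF arrays sit together at the upper right and above the line, 4 CF arrays sit at the lower left below it, and EpiSC arrays fall on both sides.

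The probe set signals of the 2 ligands did not change equally. Mdk minus Ptn averaged -0.636 ± 0.057 in aCF and 0.154 ± 0.373 in CF (SD, n = 5 each). The difference was -0.79 (2-sided exact permutation test, p = 0.00794, the smallest that 252 regroupings allow, and 0.0238 by Benjamini-Hochberg over 3 comparisons). In probe set signal the rise in aCF over CF was thus steeper for Ptn than for Mdk. Whether the 2 probe sets respond alike to RNA amount was not tested. EpiSC averaged -0.086 ± 0.494 on this measure, 0.55 above aCF, with an exact permutation p of 0.0714 (0.107 adjusted). Against CF, EpiSC differed by -0.24 (exact permutation p = 0.302, adjusted 0.302). Over the EpiSC arrays it ran from -0.69 to 0.41, lowest in EpiSC5 and EpiSC4. Since each gene is centred on its own median, only differences of this measure between arrays are read. Of 10 tests of EpiSC against aCF that left out 1 array, only that without EpiSC5 passed. EpiSC then lay 0.70 above aCF (adjusted exact permutation p = 0.0119). The other 9 did not pass (adjusted exact permutation p up to 0.167).

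Sdc3, also called N-syndecan, is a membrane proteoglycan through which pleiotrophin acts on nerve cells. It stood at -0.60, -0.65, -0.66, -0.28 and -0.48 in EpiSC arrays 1 to 5. It stood at 0.44, 0.43, 0.41, 0.55 and 0.67 in aCF arrays and at 0.28, 0.00, -0.02, 0.12 and -0.07 in CF arrays. The 3 groups did not overlap at all, with EpiSC lowest, CF between and aCF highest.

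Sdc3 fell by 1.03 ± 0.09 on the log2 scale in EpiSC relative to aCF (adjusted p = 0.00708, limma with Bonferroni). The call held in all 10 fits that left out 1 array, with an adjusted p up to 0.0496. It was lost without aCF4 and aCF5 together (0.219) and with replicate number as a block (0.112, limma with Bonferroni). The labels do not say that replicate numbers pair arrays. aCF against CF gave 0.44 ± 0.08 and EpiSC against CF -0.60 ± 0.09, and neither passed (Bonferroni-adjusted p = 1 for each, limma). By Benjamini-Hochberg these were 0.00404 and 0.000921 in the same fits.

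Lrp1 is a very large endocytic receptor that clears proteases, protease inhibitors and lipoproteins besides binding midkine. It stood at -0.36, -0.21, -0.18, -0.08 and 0.00 in EpiSC arrays 1 to 5. It stood at -0.03, 0.11, 0.13, -0.09 and -0.01 in aCF arrays and at 0.42, 0.45, 0.44, 0.33 and 0.45 in CF arrays. Every CF array was above every array of infarcted hearts, and EpiSC and aCF overlapped.

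Lrp1 differed by -0.58 ± 0.07 between EpiSC and CF (adjusted p = 0.189) and by -0.40 ± 0.06 between aCF and CF (adjusted p = 0.977), neither past the Bonferroni threshold in limma. By Benjamini-Hochberg they gave 0.000198 and 0.00118. A limma fit of all 3 groups together gave the EpiSC and CF difference a Bonferroni-adjusted p of 0.0135. EpiSC against aCF gave -0.19 ± 0.08 (Bonferroni-adjusted p = 1).

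Ncl, nucleolin, works in ribosome assembly and is found at the surface of some cells, where it binds midkine and pleiotrophin. It stood at 0.06, 0.13, 0.18, 0.43 and 0.19 in EpiSC arrays 1 to 5. It stood at -0.16, -0.13, -0.18, -0.07 and 0.06 in aCF arrays and at 0.00, -0.01, 0.00, -0.08 and -0.03 in CF arrays. EpiSC arrays were above all CF arrays, and EpiSC1 and aCF5 were level. The log2 differences were 0.29 ± 0.08 for EpiSC against aCF, -0.07 ± 0.06 for aCF against CF and 0.22 ± 0.07 for EpiSC against CF, none past the Bonferroni threshold in limma (adjusted p = 1 each).

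Ptprz1 is best known from glia and their precursors. It stood at -0.17, -0.12, -0.21, 0.61 and 0.70 in EpiSC arrays 1 to 5. It stood at -0.29, -0.10, 0.01, 0.10 and 0.09 in aCF arrays and at 0.48, 0.00, 0.11, -0.29 and -0.01 in CF arrays. EpiSC4, EpiSC5 and CF1 were high and the groups overlapped throughout. The log2 difference was 0.20 for EpiSC against aCF (95% interval -0.23 to 0.63), -0.10 for aCF against CF (-0.39 to 0.20) and 0.10 for EpiSC against CF (-0.37 to 0.58). Differences of up to these bounds cannot be told from 0 with 5 arrays per group.

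**Figure D3:**
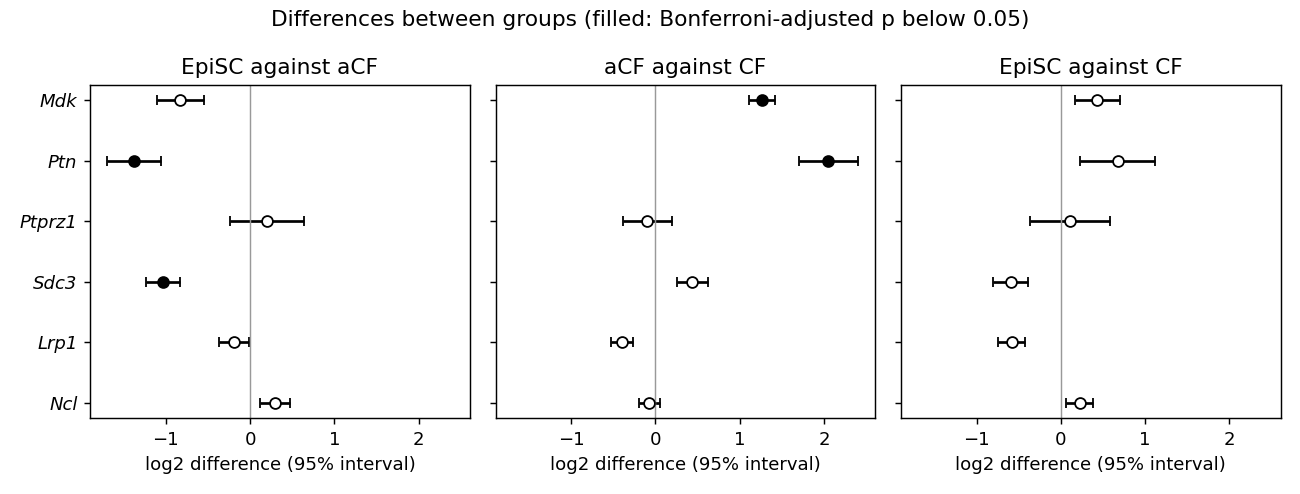
Log2 difference between groups (horizontal axis) with its 95% interval for each of the 6 genes, in the 3 comparisons, with filled points for a Bonferroni-adjusted p below 0.05. Mdk and Ptn pass in aCF against CF, Ptn and Sdc3 pass in EpiSC against aCF, and no gene passes in EpiSC against CF.

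In EpiSC against aCF, 0 of the 6 genes rose and 2 fell, where 0.666% of all rows passed Bonferroni, 0.401% higher and 0.266% lower. In aCF against CF, 2 of the 6 rose and 0 fell, where 1.53% of all rows passed, 1.21% higher and 0.32% lower. In EpiSC against CF, 0 of the 6 passed in limma, where 2.91% of all rows passed, 1.97% higher and 0.941% lower. There 5 of the 6 had an unadjusted p under 0.05, as did 42.7% of all rows. By Benjamini-Hochberg 4 of the 6 passed in EpiSC against aCF (9.61% of all rows), 4 in aCF against CF (18.1%) and 5 in EpiSC against CF (32.2%). All 5 EpiSC arrays lay below all 5 aCF arrays for 3 of the 6 genes (4.73% of all rows) and above them for 0 (5.18%), with no overlap in 9.91% of rows in all. In aCF against CF the aCF arrays lay above for 3 (7.88%) and below for 1 (6.84%), with no overlap in 14.7% of rows. In EpiSC against CF the arrays did not overlap for 3 of 6, against 23.4% of rows. The median log2 difference of the 6 was -0.51 for EpiSC against aCF, 0.18 for aCF against CF and 0.16 for EpiSC against CF, beside 0.01, -0.022 and -0.008 over all rows. The comparisons share arrays, and the genes were chosen with earlier results of these data known.

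The means of marker lists for several cell types, fibroblasts among them, moved with these patterns, but not every marker did. The mean over 9 of 10 fibroblast markers was -0.439 to 0.0056 in EpiSC arrays, 0.0756 to 0.197 in aCF arrays and -0.242 to -0.112 in CF arrays. It was highest in aCF, as for Mdk, Ptn and Sdc3. Of the 9, 4 were higher and 1 lower in aCF against CF (limma with Bonferroni, 1.53% of all rows). The lower one was Gsn (-1.13). Tcf21 (-0.38), Dcn (-0.11), Lum (-0.07) and Dpt (-0.08) were also below 0 there without passing, and the list's median difference was -0.07. The mean over 8 of 10 pericyte and smooth muscle markers was -0.891 to -0.530 in EpiSC arrays, 0.393 to 0.726 in aCF arrays and -0.685 to 0.075 in CF arrays, with the mean highest in aCF as for Mdk, Ptn and Sdc3. Its members did not all follow the mean. Des was 1.68 higher in EpiSC than in aCF (adjusted p = 0.0174, limma with Bonferroni). Rgs5 (-3.58, adjusted p = 0.000162) and Higd1b (-2.10, adjusted p = 0.00235) were lower in the same limma fit with Bonferroni, where 0.666% of all rows passed. By Benjamini-Hochberg 1 of the 8 was higher and 6 lower in EpiSC against aCF (9.61% of all rows). Kcnj8 (-0.30) and Abcc9 (-0.62) were below 0 in aCF against CF without passing. In that comparison 1 of the 8 passed, Tagln at 2.36 (adjusted p = 0.000111, limma with Bonferroni), where 1.53% of all rows did. By Benjamini-Hochberg 5 were higher and 0 lower there (18.1% of all rows). The mean over 6 of 10 macrophage markers was also highest in aCF, with -0.305 to 0.115 in EpiSC, 0.187 to 0.512 in aCF and -0.230 to -0.0433 in CF. None of the 6 passed limma with Bonferroni in any comparison, where 0.666% to 2.91% of all rows did. By Benjamini-Hochberg 4 were higher and 0 lower in aCF against CF (18.1% of all rows). In EpiSC against aCF 0 were higher and 4 lower (9.61% of all rows). The mean over 7 of 10 endothelial markers was -1.04 to -0.853 in EpiSC, -0.169 to 0.547 in aCF and 0.340 to 0.857 in CF, with the mean highest in CF as for Lrp1, although Ptprb was 1.14 in aCF against CF (Bonferroni-adjusted p = 1). Heart muscle markers (7 of 10) gave -1.14 to -0.600 in EpiSC, -0.741 to 0.403 in aCF and 0.339 to 0.550 in CF. Their part in the differences was not tested, and centred values cannot show whether any marker is absent.

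Beside Ptprz1, the mean over 5 of 10 Schwann cell and glial markers was -0.118 to 0.140 in EpiSC, -0.212 to 0.074 in aCF and -0.018 to 0.178 in CF. It was highest in CF1 within CF, as Ptprz1 was, but in EpiSC it was highest in EpiSC3, where Ptprz1 was lowest. Beside Ncl, the mean over 13 of 16 cell cycle genes was 0.449 to 0.795 in EpiSC, -0.120 to 0.149 in aCF and -1.82 to -1.21 in CF. Ncl and the cell cycle mean were both highest in EpiSC. The cell cycle mean also separated aCF from CF, while Ncl did not. A link between them was not tested.

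Other proteins have been described as receptors for the 2 ligands, and 12 of 16 on the list used had a value. Alk, the receptor tyrosine kinase linked to both, was on the list but had no paired value. In EpiSC against aCF 1 of the 12 rose and 0 fell (0.666% of all rows), with a median of 0.087. By Benjamini-Hochberg 4 were higher and 1 lower, where 9.61% of all rows passed in either direction. The riser was Sdc4, a widely expressed syndecan of focal adhesions. It stood at 1.23, 1.38, 1.44, 1.03 and 0.77 in EpiSC arrays and at -0.06, -0.27, 0.08, 0.00 and -0.02 in aCF arrays. Sdc4 rose by 1.22 ± 0.13 (adjusted p = 0.0459, limma with Bonferroni), a call that held in 1 of 10 fits leaving out an array, without EpiSC5 (up to 0.260 otherwise). It was also lost without aCF4 and aCF5 together (adjusted p = 1). Sdc4 and Sdc3, both syndecans, thus ran in opposite directions between EpiSC and aCF, Sdc4 above and Sdc3 below.

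Between aCF and CF, 0 of these 12 receptors passed in limma with Bonferroni, 2 were higher and 2 lower by unadjusted p (31.1% of all rows) and 1 passed Benjamini-Hochberg (18.1% of all rows). That was Itgb1, the beta-1 integrin chain, at 0.28 ± 0.05. Between EpiSC and CF 0 of 12 passed, with 4 higher and 4 lower by unadjusted p (under 0.05 here and below, 42.7% of all rows). By Benjamini-Hochberg 4 were higher and 3 lower, where 32.2% of all rows passed. Sdc4 was 1.22 ± 0.13 above CF in EpiSC and did not pass (adjusted p = 0.068). Itgb1 was -0.49 ± 0.06 in EpiSC against aCF (adjusted p = 0.157). Its values ran from -0.27 to -0.09 in EpiSC, 0.20 to 0.34 in aCF and -0.07 to 0.07 in CF, so the 3 groups stood in the order seen for Sdc3.

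Tnc, the matrix protein tenascin C and another ligand of Ptprz1, was far lower in CF than in both infarct groups. It ran from -0.16 to 0.24 in EpiSC, 0.22 to 0.28 in aCF and -3.02 to -2.49 in CF. It rose by 2.76 ± 0.11 in EpiSC over CF (adjusted p = 4.50e-06, limma with Bonferroni) and by 3.00 ± 0.10 in aCF over CF (adjusted p = 2.96e-07, limma with Bonferroni). These calls held in every fit that left out 1 array. Tnc was the 1 riser of 6 Ptprz1 ligands and partners in each of the 2 comparisons with CF. Of all rows, 1.53% passed in aCF against CF and 2.91% in EpiSC against CF. In EpiSC against aCF 0 of the 6 passed, with 0 higher and 2 lower by unadjusted p (23.9% of all rows) and 0 by Benjamini-Hochberg. Of 6 Ptprz1 substrates and downstream genes 0 passed limma with Bonferroni in any comparison. By unadjusted p, 1 was higher and 2 lower in EpiSC against aCF (23.9% of all rows). The counts were 1 and 3 in aCF against CF (31.1% of all rows), and 1 and 2 in EpiSC against CF (42.7% of all rows).

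Chondroitin and heparan sulfate chains are what both ligands hold on to, and 21 of 28 synthesis enzymes and carriers had a value. In EpiSC against aCF 0 rose and 1 fell (0.666% of all rows), with a median of -0.29 beside 0.026 over all named genes. By Benjamini-Hochberg 3 were higher and 5 lower (9.61% of all rows). The 1 that fell was Chpf, chondroitin polymerizing factor. It stood at -0.67, -0.71, -0.73, -0.47 and -0.58 in EpiSC arrays and at 0.57, 0.71, 0.58, 0.55 and 0.77 in aCF arrays. The groups were far apart, and Chpf fell by 1.27 ± 0.07 (adjusted p = 0.000148, limma with Bonferroni) and held in all 10 fits leaving out an array. It did not pass with replicate number as a block.

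In aCF against CF 0 of the 21 passed, 9 were higher and 2 lower by unadjusted p (31.1% of all rows), and 8 were higher and 1 lower by Benjamini-Hochberg (18.1% of all rows). In EpiSC against CF 1 rose, where 2.91% of all rows passed. It was Chst15, the sulfotransferase that makes the highly sulfated chondroitin sulfate E to which midkine binds strongly. Its values ran from 0.98 to 1.65 in EpiSC, -0.75 to 0.40 in aCF and -1.58 to -0.31 in CF. Chst15 rose by 2.31 ± 0.24 in EpiSC over CF (adjusted p = 0.0487, limma with Bonferroni), a call that held in 1 of 10 fits leaving out an array, without CF1 (up to 0.263 otherwise).

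**Figure D4:**
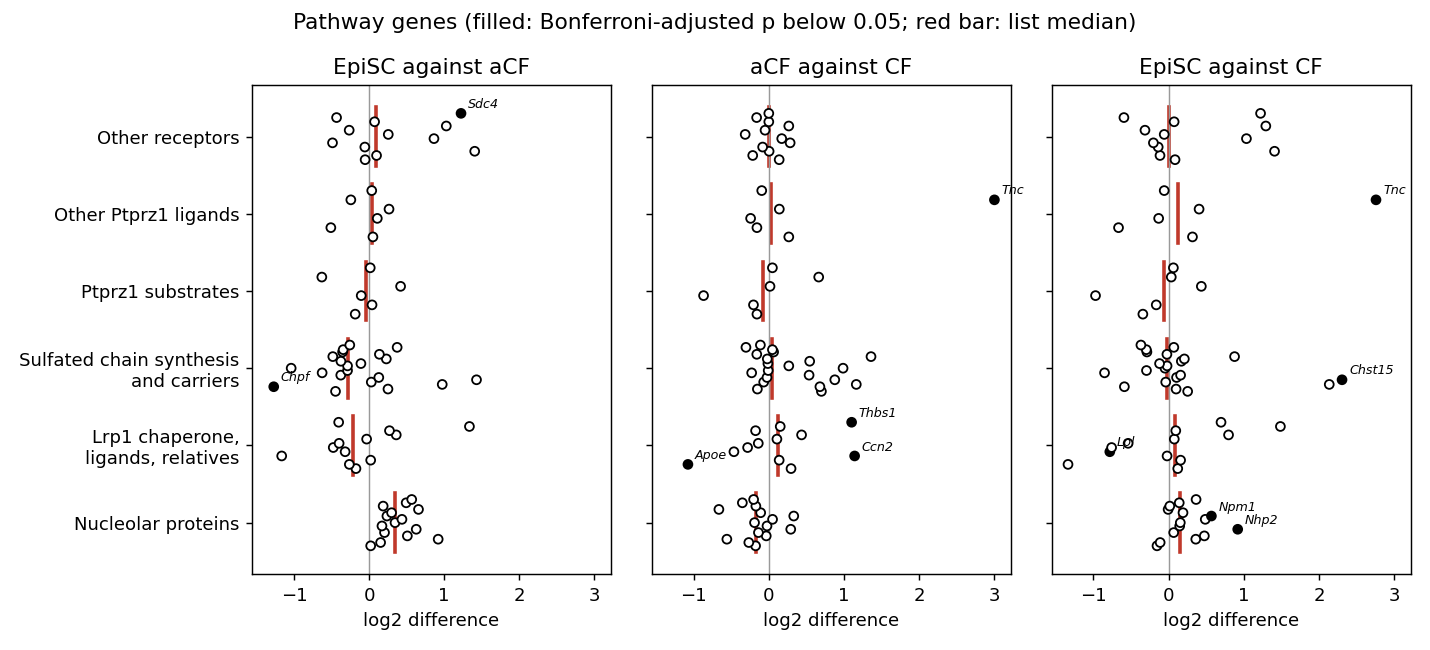
Log2 differences (horizontal axis) of pathway genes in 6 lists, with a point per gene, filled and named where the Bonferroni-adjusted p is below 0.05, and a red bar for each list's median, in the 3 comparisons. Sdc4 and Chpf pass in EpiSC against aCF, Tnc lies farthest to the right in both comparisons with CF, and the 15 nucleolar genes lie to the right of 0 in EpiSC against aCF.

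Of the chaperone, ligands and relatives of Lrp1, 12 of 22 had a value. In aCF against CF 2 rose and 1 fell, where 1.53% of all rows passed Bonferroni. Thbs1, thrombospondin 1, rose by 1.10 ± 0.12 (adjusted p = 0.0381), and Ccn2, a matricellular protein, by 1.14 ± 0.12 (adjusted p = 0.0484), both by limma with Bonferroni. Thbs1 held only without CF2 or aCF1 (up to 0.213 otherwise) and Ccn2 only without aCF1 (up to 0.273 otherwise). Without aCF4 and aCF5 together neither passed (0.498 for Thbs1 and 1 for Ccn2), and after quantile normalization Ccn2 did not (0.411). Apoe, the lipoprotein component that Lrp1 takes up, fell by 1.08 ± 0.07 (adjusted p = 0.000333, limma with Bonferroni). It ran from -0.20 to 0.02 in aCF and 0.89 to 1.14 in CF, held in all 10 such fits, and did not pass in a fit of all 3 groups (adjusted p = 1).

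In EpiSC against CF 1 of the 12 fell, the lipoprotein lipase gene Lpl, by 0.78 ± 0.08 (adjusted p = 0.0475, limma with Bonferroni), which held in 1 of 10 fits, without CF5 (up to 0.278 otherwise), and not after quantile normalization (0.132). Of all rows, 2.91% passed Bonferroni in EpiSC against CF. By Benjamini-Hochberg 3 of the 12 were higher and 4 lower there (32.2% of all rows). In EpiSC against aCF 0 passed limma with Bonferroni. By unadjusted p 3 were higher and 5 lower (23.9% of all rows), and by Benjamini-Hochberg 1 was higher and 2 lower (9.61% of all rows). Lrpap1, the chaperone that escorts Lrp1 through the secretory route, differed by -0.54 ± 0.09 in EpiSC against CF, with no overlap, and by -0.14 ± 0.10 in aCF against CF. Neither passed (Bonferroni-adjusted p = 1).

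Of nucleolar proteins that work beside Ncl, 15 of 22 had a value. In EpiSC against CF 2 rose and 0 fell, where 2.91% of all rows passed. Nhp2, a core protein of the particles that modify ribosomal RNA, rose by 0.92 ± 0.10 (adjusted p = 0.0396). Npm1, nucleophosmin, rose by 0.57 ± 0.06 (adjusted p = 0.0357), both by limma with Bonferroni. Npm1 lost its call in each of 10 fits leaving out an array (0.0614 to 0.217), and Nhp2 held only without CF4 (up to 0.244 otherwise). In EpiSC against aCF 0 of 15 passed, 12 were higher and 0 lower by unadjusted p (23.9% of all rows), and 7 were higher and 0 lower by Benjamini-Hochberg (9.61% of all rows), with a median of 0.35 beside 0.026 over all named genes. In aCF against CF 0 passed, with a median of -0.17. By unadjusted p 2 were higher and 6 lower (31.1% of all rows), and by Benjamini-Hochberg 1 was higher and 3 lower (18.1% of all rows). Npm1 differed by 0.33 ± 0.07 in aCF against CF, above the -0.07 of Ncl, and neither passed.

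The genes most like each of the 6 over the 15 arrays were named by Pearson's r, as a description, since arrays of a group share their difference from the others. For Ptn they were Gria3 (0.962), Ecrg4 (0.962), Grb14 (0.957) and Aoc3 (0.948). For Mdk they were Zdhhc2 (0.958), Zfp185 (0.938), Cercam (0.937) and Slc44a2 (0.934), and the mean of each of these 8 genes was highest in aCF. For Sdc3 they were Pmepa1 (0.970), Zfp354c (0.954), Emilin1 (0.950) and Nbea (0.949).

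For Lrp1 they were Sptbn1 (0.985), Akap12 (0.980), Cp (0.958) and Wasl (0.956), all with their highest mean in CF. For Ncl they were Mmp19 (0.945), Naa15 (0.933), Ifitm3 (0.925) and Eif3c (0.898), all with their highest mean in EpiSC. Ptprz1, which did not separate the groups, had the weakest likeness: Gal3st2b (0.851), Olfr1391 (0.810), Enkur (0.764) and Stx1a (0.759).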

How the data were processed

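The values are log2 expression per probe set as deposited by the authors, with base 2 inferred from the method and the range of -4.77 to 5.52. The series design text states that the authors processed the arrays in GeneSpring GX 12.5 by quantile normalization at probe level, an RMA summary for exon arrays and centring on the median sample. No source used here gives the arrays' genome build. That text also describes a floor at percentile 20 of raw fluorescence, which centred values do not allow, so all 22206 rows were tested. Depth in the sense of reads does not apply, and the number of arrays limits the precision.

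Pairing gave 15303 rows an identifier, of which 13538 carried a symbol from the platform annotation. The other 6903 rows stayed unnamed but were tested. For a gene with several probe sets the first by identifier was used. The 6 genes and all lists were chosen with earlier results of these data known.

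Every pair of groups had its own limma fit (version 3.58.1 under R 4.3.3, lmFit then eBayes, 2-sided) on its 10 arrays, with Bonferroni adjustment over all rows and a threshold of 0.05. The code was tested on simulated data. EpiSC against CF was added to the 2 comparisons of the design text. Arrays of a group are called biological replicates in the labels. Named were the 6 genes, the 4 most like each, and in each pathway list up to 4 genes past the threshold per comparison. To these came 5 set genes where they had a value (Alk, Itgb1, Sdc4, Npm1, Lrpap1), which Alk did not. The alternatives tried were a fit of all 3 groups, quantile normalization, Benjamini-Hochberg adjustment, paired rows only, replicate number as a block, arrays left out and the order as deposited.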

Additional observations from a re-analysis of the deposited data

Results flagged for a closer look

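Of 18 combinations of gene and group, 3 held an array whose gap to its nearest neighbour exceeded Dixon's 95% critical value for 5 arrays, 0.71 of the group's range. Chance alone is expected to give about 1 in 20. Mdk in aCF4 was 0.54, below the other 4 aCF arrays. Without aCF4 the Mdk difference between aCF and CF was 1.31 (adjusted p = 4.12e-05, limma). Ptn in CF1 was 0.00, above the other 4 CF arrays, and without it the difference between aCF and CF was 2.22 (adjusted p = 1.05e-06, limma). Lrp1 in CF4 was 0.33, below the other 4 CF arrays, and without it EpiSC against CF gave -0.61 (adjusted p = 0.496, limma).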

How the results depend on the processing

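The called differences of Mdk, Ptn and Sdc3 kept their direction under every alternative, except for Ptn in the order as deposited. With the identifiers as deposited 0 of the 6 genes passed in any comparison. EpiSC against aCF then gave Ptn 0, Sdc3 -0.026, Ptprz1 -0.11, Lrp1 0.10 and Ncl -0.026. aCF against CF gave Mdk 0.48, Ptn -0.002, Ptprz1 0.20, Sdc3 -0.23 and Lrp1 0.65, and EpiSC against CF gave Ptn -0.002, Lrp1 0.75 and Ncl -0.62. Without the extra 3 rows Lrp1 was 0.004 in EpiSC against aCF, 0.024 in aCF against CF and 0.028 in EpiSC against CF, so each statement on Lrp1 rests on them. The probe sets past the threshold numbered 148 in EpiSC against aCF, 340 in aCF against CF and 647 in EpiSC against CF. A fit of all 3 groups gave 369 in EpiSC against aCF and 1060 in EpiSC against CF, with Mdk (-0.83, adjusted p = 0.0467, limma) passing in EpiSC against aCF, and Lrp1 (-0.58), 1 gene of the 6, in EpiSC against CF. Benjamini-Hochberg gave 2135, 4023 and 7157 probe sets and 4, 4 and 5 of the 6 genes. It added Mdk (-0.83) and Ncl (0.29) in EpiSC against aCF and Sdc3 (0.44) and Lrp1 (-0.40) in aCF against CF. In EpiSC against CF it added Mdk (0.43), Ptn (0.67), Sdc3 (-0.60), Lrp1 (-0.58) and Ncl (0.22). Without aCF4 and aCF5 there were 50 probe sets and 0 of the 6 genes in EpiSC against aCF (Ptn -1.39, Sdc3 -0.96) and 144 probe sets and 1 gene in aCF against CF (Ptn 2.07). Quantile normalization moved the Mdk minus Ptn difference of EpiSC against aCF to 0.68 (adjusted exact permutation p = 0.0119).

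Leaving out 1 array at a time gave 73 to 143 probe sets in EpiSC against aCF, 197 to 272 in aCF against CF and 369 to 557 in EpiSC against CF. Of the 6 genes, 1 to 2 passed in EpiSC against aCF, with Ptn from -1.49 to -1.28, and the Mdk minus Ptn difference ran from 0.43 to 0.70. Ptprz1 ran from -0.183 to 0.0095 in aCF against CF, above 0 without CF1, and from -0.0305 to 0.2095 in EpiSC against CF, below 0 without EpiSC4 (-0.008) or EpiSC5. Lower counts follow in part from fewer arrays, and other causes were not tested.

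The replicate numbers are not stated to pair arrays, and same-numbered deviations correlated at 0.019 to 0.154 in EpiSC and aCF, -0.0088 to 0.156 in aCF and CF and -0.022 to 0.040 in EpiSC and CF. Each EpiSC array's best match among aCF was its own number in 4 of 5 cases, a hint from the data and not the design. With replicate number as a block, 41 probe sets passed in EpiSC against aCF, 94 in aCF against CF and 166 in EpiSC against CF. Of the 6 genes, 0 passed in EpiSC against aCF (Ptn -1.38, Sdc3 -1.03) and 2 in aCF against CF. Chpf then had an adjusted p of 0.0582 (limma), and Sdc4, Thbs1, Ccn2, Chst15, Lpl, Npm1 and Nhp2 did not pass either. The alternatives for pathway genes were chosen after seeing the data.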
